A study of Homo sapiens with 2 samples.

Results

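Small nucleolar RNA (snoRNA) host genes are mostly noncoding genes whose introns carry snoRNAs. They were followed here through 2 single-cell libraries of human embryonic stem cells. Members were every gene of the authors' gene table named SNHG with a number, plus GAS5, EPB41L4A-AS1, ZFAS1 and MIR302CHG, the host of the miR-302 and miR-367 microRNAs. The rule used names and no measured value, but the members were chosen with earlier results of these data known. It gave 32 members of 36601 genes. Of these, 30 had at least 100 unique molecular identifiers (UMIs, 1 for each captured RNA molecule) over both libraries. SNHG28 had 0 UMIs in both libraries, a level of at most 0.0110 CPM (UMIs of the gene per 1000000 UMIs) in SO-L1 and 0.00601 CPM in ASO-L1, where 3 UMIs are taken as the floor. SNHG27 had 1 and 5 UMIs, and no ratio was formed for either gene.

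The libraries were made from H9, an established line of human embryonic stem cells, grown in RSeT medium, which is meant to hold cells in a naive state. One culture received ASO-L1, an oligonucleotide antisense to LINE1 transposon RNA, and the other SO-L1, its sense control, each at 25 nM and labelled with fluorescein. Everything else was given to both groups: 10 nM DZNep, which lowers histone methylation, and 5 nM TSA, a histone deacetylase inhibitor, up to collection at 48 h, and for the first 24 h also 0.7 µM Trans-ISRIB, an inhibitor of the integrated stress response, 5 µM emricasan, a caspase inhibitor, and 10 µM Y-27632, a ROCK inhibitor. From each culture 100000 cells positive for the dye were sorted, so both libraries hold only cells that took up an oligonucleotide, and 12000 cells were aimed at with the 10x 3′ v3 kit. Each group is 1 library, so no test between groups was possible, "higher" and "lower" compare these libraries, and every interval covers counting error only. A gene is called higher or lower here when its CPM differed at least 1.5-fold and the 95% interval of the ratio excluded 1.

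The cell filter asked for 1000 or more genes with a UMI and a share of mitochondrial (MT-) UMIs below 20%, which left 6553 cells in SO-L1 and 9084 in ASO-L1, with medians of 42314 and 53959.5 UMIs. Within each library the cells fell into a class below 2% MT- UMIs (1857 and 2531 cells) and a class at 2% or more (4696 and 6553 cells). The defining pluripotency genes were present in both libraries: POU5F1 at 948 CPM in SO-L1 and 867 CPM in ASO-L1, SOX2 at 313 and 223 CPM, and NANOG at 62.6 and 61.6 CPM. The naive marker KLF17 was close to absent, at 0.571 and 2.00 CPM, whereas DPPA5 stood at 228 and 258 CPM. The libraries shared barcodes: 6105 barcode sequences were deposited in both, and 274 passed the cell filter in both. Of the kept cells, 1062 in SO-L1 and 5308 in ASO-L1 carried a barcode also deposited in the other library, and counts of member calls are also given without these cells where they moved by over 1.5 times. That alternative was not run for the gene lists, nor for the TPRX1 or ZSCAN4 cells below 2% only. The all-gene shares below include these cells, and no such share is given beside counts without them.

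In the cell, introns of these genes release small RNAs after splicing. C/D box snoRNAs guide the 2′-O-methylation of ribosomal RNA and H/ACA box snoRNAs its pseudouridylation, both in the nucleolus, while small Cajal body RNAs guide the same reactions on spliceosomal RNAs. The spliced host transcripts are exported and, for several members such as GAS5, are read by ribosomes and removed by nonsense-mediated decay, and many start with the terminal oligopyrimidine (TOP) tract shared with ribosomal protein genes. The 3′ kit captures polyadenylated RNA, so the values below are those of the host transcripts and not of the small RNAs.

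The small RNAs below are encoded within the spans of members whose host transcript differed most between the libraries or that had many UMIs, and show what each host carries. Sequences are those of GENCODE 29 on GRCh38, written as DNA. Capitals mark the C box (TGATGA) and the D box (CTGA) of C/D box snoRNAs, and the ACA box of H/ACA box snoRNAs. SNORD48 lies at chr6:31835263-31835326 and SNORD52 at chr6:31837076-31837142, on the plus strand within SNHG32. SNORD25 lies at chr11:62855564-62855632 on the minus strand within SNHG1, and SNORD50B at chr6:85677589-85677658 on the minus strand within SNHG5. SNORD104 lies at chr17:64146083-64146152 on the plus strand within SNHG25, and SNORD12C at chr20:49278940-49279028 on the plus strand within ZFAS1. SNORA9 lies at chr7:44985378-44985510 on the minus strand within SNHG15, and SNORA24 at chr4:118279190-118279320 on the plus strand within SNHG8.
SNORD48: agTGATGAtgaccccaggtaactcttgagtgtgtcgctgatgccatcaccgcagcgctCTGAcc
SNORD52: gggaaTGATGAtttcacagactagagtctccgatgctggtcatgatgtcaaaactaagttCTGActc
SNORD25: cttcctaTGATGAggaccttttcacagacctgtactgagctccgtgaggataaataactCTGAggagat
SNORD50B: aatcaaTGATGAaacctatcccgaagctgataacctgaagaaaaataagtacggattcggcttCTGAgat
SNORD104: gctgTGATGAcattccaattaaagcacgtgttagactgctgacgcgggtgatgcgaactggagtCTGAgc
SNORD12C: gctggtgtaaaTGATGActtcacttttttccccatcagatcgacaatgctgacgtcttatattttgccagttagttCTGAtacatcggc
SNORA9: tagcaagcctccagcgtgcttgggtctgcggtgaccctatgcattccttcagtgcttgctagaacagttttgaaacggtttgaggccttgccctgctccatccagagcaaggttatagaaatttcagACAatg
SNORA24: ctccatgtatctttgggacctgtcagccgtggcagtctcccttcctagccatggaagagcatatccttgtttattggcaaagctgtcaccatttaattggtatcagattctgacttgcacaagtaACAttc

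MIR302CHG carries 5 microRNAs known for their abundance in pluripotent cells, with miR-302b-3p at chr4:112648489-112648511 and miR-367-3p at chr4:112647877-112647898, both on the minus strand. The mature sequences are from RefSeq on GRCh38.p14, with the seed (bases 2 to 8) in capitals. The 4 miR-302 forms share 1 seed, and miR-367-3p has another.
miR-302b-3p: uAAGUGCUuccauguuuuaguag
miR-302c-3p: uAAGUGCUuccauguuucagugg
miR-302a-3p: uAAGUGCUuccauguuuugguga
miR-302d-3p: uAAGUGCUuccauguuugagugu
miR-367-3p: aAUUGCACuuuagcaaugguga

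Annotated transcription starts are shown because TOP genes begin with a C in a run of pyrimidines. Of the 28 members with a RefSeq promoter entry (GRCh38.p14), 7 had a C at the first transcribed base followed by at least 4 further pyrimidines. The same held for 4.07% of all 35116 promoters and for 48 of 86 ribosomal protein genes. The 30 bases around the annotated start (10 before, 20 from the start on) are shown for 4 of these 7 and for GAS5, with the pyrimidine run from the start in capitals. They lie at chr6:31834906-31834935 (SNHG32, plus strand), chr6:85678714-85678743 (SNHG5, minus strand), chr20:49278632-49278661 (ZFAS1, plus strand), chr1:28581854-28581883 (SNHG12, minus strand) and chr1:173869026-173869055 (GAS5, minus strand). The RefSeq start taken for GAS5 had no such run. Its window lies upstream of the GENCODE 29 span of GAS5, which begins at 173868882 on the minus strand. It thus does not show whether that span starts with such a run. A match describes these letters only, and the annotated start may differ from the one used in these cells. SNHG18, SNHG4 and SNHG19, the rest of the 7, are not shown. SNHG18 had the longest run of the 7, 21 bases, and was not called higher in ASO-L1 over all kept cells. Whether such a start has a part in the ratios below was not tested.
SNHG32: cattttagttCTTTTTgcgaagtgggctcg
SNHG5: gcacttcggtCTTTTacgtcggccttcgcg
ZFAS1: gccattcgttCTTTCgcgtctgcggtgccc
SNHG12: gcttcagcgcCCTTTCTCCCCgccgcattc
GAS5: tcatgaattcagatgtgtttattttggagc

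Over all kept cells, host transcripts were mostly higher in ASO-L1. Of the 30 members, 25 were higher, 1 was lower (SNHG22) and 4 were in between, and 14 were at least 2-fold higher. Over all 22863 genes measured, 16.6% were higher and 17.1% lower by the same 1.5-fold call. No all-gene share is given at 2-fold, so the 14 members were not set against all genes. The median log2 ratio was 0.96 over the members and -0.02 over all genes. Summed over the members, the level was 3719 CPM in SO-L1 and 6248 CPM in ASO-L1. Without the barcodes deposited in both libraries, 25 members were higher and 3 lower, SNHG31 and SNHG14 having joined SNHG22. The ratios were then 2.99 for GAS5, 1.68 for SNHG29, 2.30 for MIR302CHG, 5.35 for SNHG15 and 0.386 for SNHG22, each farther from even than with all kept cells.

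**Figure D1:**
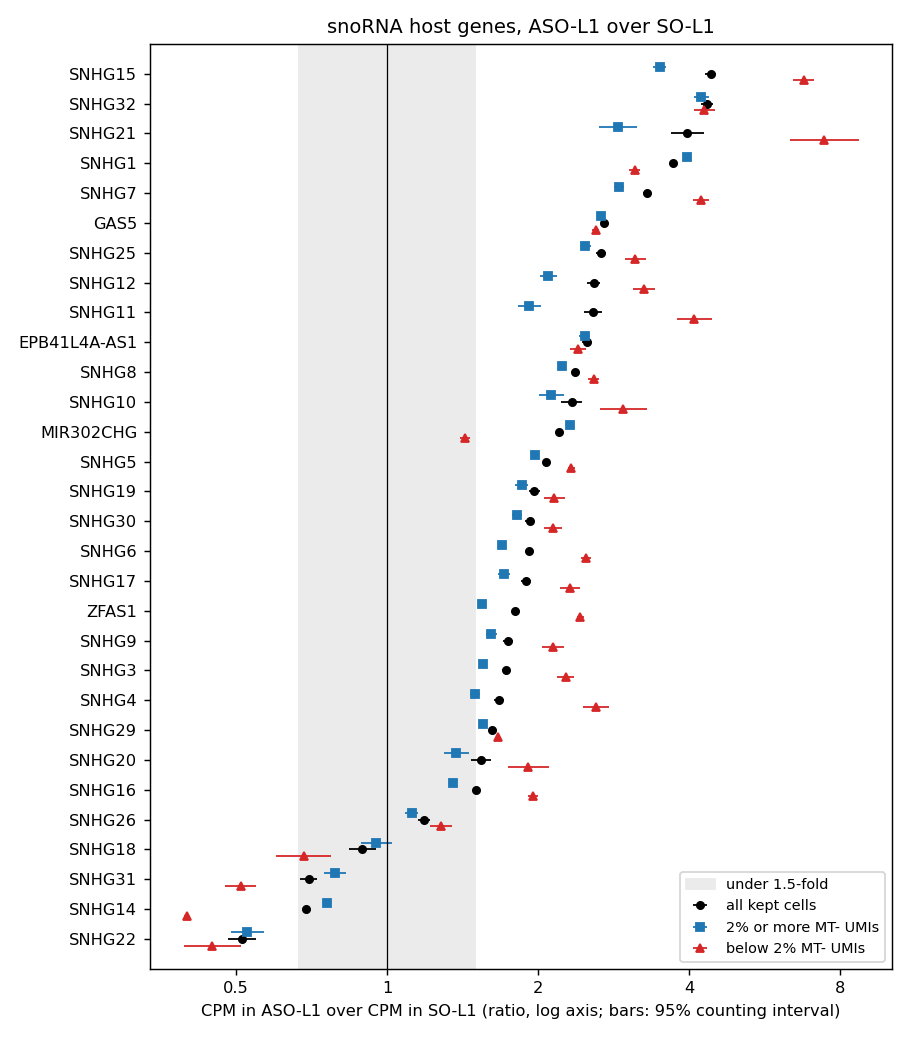
Ratio of CPM in ASO-L1 over CPM in SO-L1 (log axis) for the 30 measured members, in all kept cells (black circles), in cells with 2% or more MT- UMIs (blue squares) and in cells below 2% (red triangles). Bars are 95% counting intervals, and the grey band spans ratios under 1.5-fold. The members from SNHG16 (1.5) up to SNHG15 (4.41) were called higher in all kept cells. MIR302CHG had its lowest ratio below 2% (1.43), whereas SNHG21 (7.41) and SNHG15 (6.76) had their highest there.

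Of the 12 members that host only C/D box snoRNAs, 9 were higher and none lower. SNHG32, formerly C6orf48 and host of SNORD48 and SNORD52, stood at 19.5 CPM in SO-L1 and 84.8 CPM in ASO-L1, a ratio of 4.34 (95% interval 4.22 to 4.47). SNHG1, which carries 8 C/D box snoRNAs, was at 68.9 and 256 CPM, 3.72-fold (3.66 to 3.78). Both ratios stood far above the all-gene median. SNHG5, host of SNORD50A and SNORD50B, was at 295 and 612 CPM, a ratio of 2.08. ZFAS1, host of the SNORD12 group, was at 301 and 539.9 CPM, a ratio of 1.80 (1.78 to 1.81). SNHG29, the member with most UMIs, was at 754 and 1221 CPM, a ratio of 1.62 (1.61 to 1.63). These 3 abundant hosts were thus higher by less than SNHG32 and SNHG1. SNHG19 (1.96), SNHG30 (1.93), SNHG6 (1.91) and SNHG16 (1.5, interval 1.49 to 1.52) were also called higher. SNHG26 (ratio 1.19) and SNHG18 (0.892) were under the 1.5-fold line.

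SNHG14 was the exception among abundant C/D box hosts. This gene covers 440880 bases of the imprinted region on chromosome 15 at 24978583 to 25419462 (GENCODE 29, GRCh38), carries 83 C/D box snoRNAs in RefSeq and runs antisense over UBE3A. It stood at 927 CPM in SO-L1 and 638 CPM in ASO-L1, a ratio of 0.688 (0.685 to 0.692), on the lower side but just short of a call. With the barcodes deposited in both libraries left out, its ratio was 0.621 (0.616 to 0.626) and was called lower. SNHG14 overlaps SNRPN on the same strand, and the sources used here do not say whether intronic or strand-ambiguous reads were counted, so its UMIs and reads of its neighbours cannot be told apart.

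Among the 10 hosts of H/ACA box snoRNAs alone, 9 were higher. SNHG15, host of SNORA9, was at 24.8 CPM in SO-L1 and 109.6 CPM in ASO-L1, 4.41-fold (4.30 to 4.53), the largest ratio of any member in all kept cells. SNHG7, host of SNORA17A and SNORA17B, was at 47.4 and 156 CPM, 3.29-fold (3.23 to 3.35). SNHG8, host of SNORA24, was at 92.6 and 219.5 CPM, a ratio of 2.37. SNHG15 and SNHG7 thus lay well above SNHG8. EPB41L4A-AS1, host of SNORA13, was at 39.8 and 99.5 CPM, a ratio of 2.50 (2.45 to 2.55). SNHG11 (2.57), SNHG17 (1.89), SNHG9 (1.74), SNHG3 (1.73) and SNHG4 (1.67) were higher as well. SNHG31, which runs antisense to ABCA12, was at 15.7 and 10.9 CPM, a ratio of 0.698 (0.670 to 0.727) and thus in between.

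All 3 hosts of both box types were higher. GAS5, named for its rise in growth-arrested cells and a textbook target of nonsense-mediated decay, carries 10 C/D box snoRNAs and 1 H/ACA box snoRNA in RefSeq and spans chromosome 1 at 173863900 to 173868882 on the minus strand. Its 50548 SO-L1 UMIs and 249842 ASO-L1 UMIs came to 185 and 501 CPM, a ratio of 2.71 (2.68 to 2.73). SNHG25, host of SNORD104 and SNORA50C, was at 31.9 and 85.2 CPM, a ratio of 2.67. SNHG12 was at 18.5 and 47.7 CPM, a ratio of 2.58.

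The 4 hosts of small Cajal body RNAs split. SNHG21 was at 2.88 CPM in SO-L1 and 11.4 CPM in ASO-L1, 3.96-fold (3.68 to 4.27), from 788 and 5702 UMIs. SNHG10 (2.33) and SNHG20 (1.54, interval 1.47 to 1.61) were higher too. SNHG22 was at 6.82 and 3.51 CPM, a ratio of 0.514 (0.481 to 0.549), and was the lower member. Its UMIs were concentrated in few cells: the 1% of cells with most of them held 48.3% of them for SO-L1 and 28.9% for ASO-L1, against 6.94% and 8.41% for GAS5.

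MIR302CHG, the microRNA host, was at 256 CPM in SO-L1 and 563 CPM in ASO-L1, a ratio of 2.20 (2.18 to 2.22). It overlaps LARP7 on the opposite strand. Of the 32 members 19 overlap a protein-coding gene on either strand, and 17 overlap one on the opposite strand. Strand-aware counting would tell opposite-strand partners apart, but the sources used here do not describe how antisense reads were counted. It would not separate partners on the same strand, such as RCC1 for SNHG3, MATR3 for SNHG4 and SEC14L1 for SNHG20.

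Within the 2 mitochondrial classes, with MT- genes left out of the totals, the direction held for most members. At 2% or more MT- UMIs 22 of 30 members were higher and 1 lower (SNHG22), against 12.2% and 15.7% of all genes measured, with a median log2 ratio of 0.87 over members and -0.06 over all genes. Below 2% 24 were higher and 3 lower (SNHG14, SNHG22 and SNHG31), against 22.9% and 24.9% of all genes, with medians of 1.24 and -0.01. Of the members called higher, 22 at 2% or more and 24 below 2%, the classes shared 21. At 2% or more without the barcodes deposited in both libraries, 23 members were higher and 2 lower, SNHG14 with SNHG22, and below 2% 25 were higher and 3 lower.

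**Figure D2:**
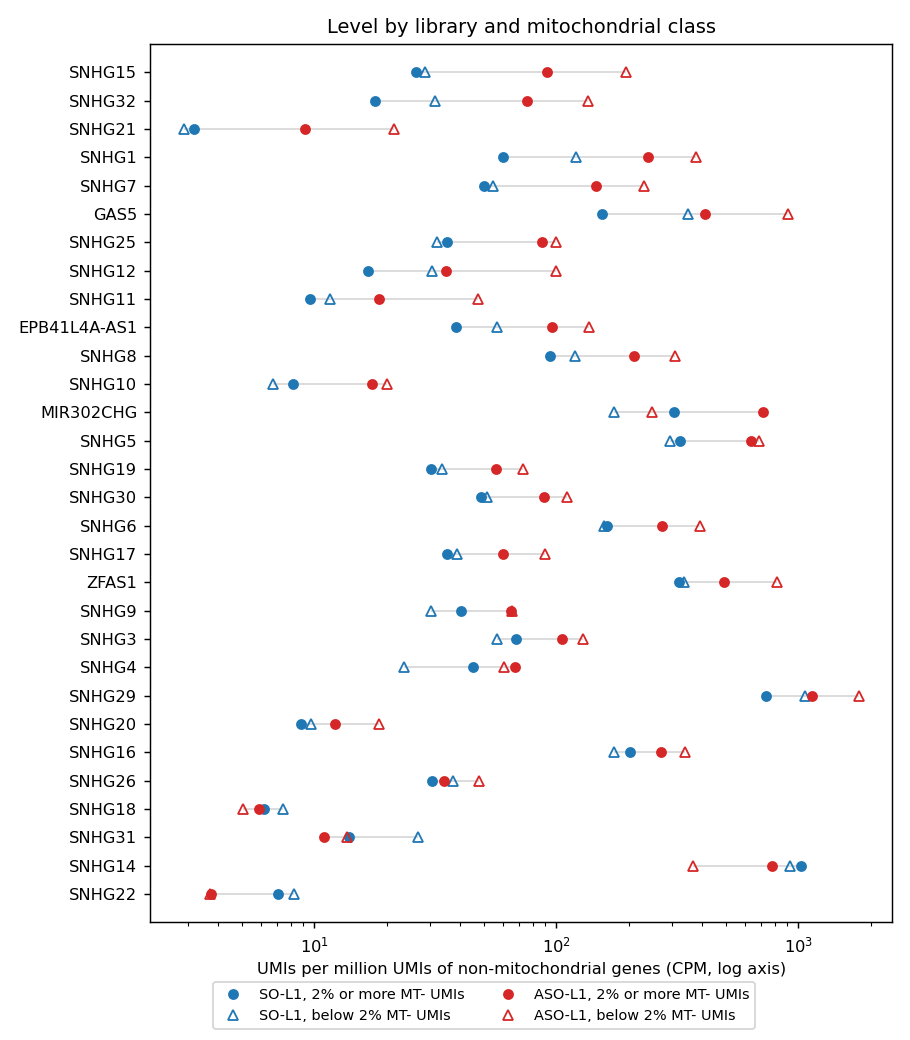
Level of each member in CPM of non-mitochondrial UMIs (log axis), for SO-L1 (blue) and ASO-L1 (red), in cells with 2% or more MT- UMIs (filled circles) and below 2% (open triangles). Grey lines join the 4 values of a gene. GAS5 reached 908 CPM in ASO-L1 cells below 2%, SNHG14 had its lowest value there (368), and MIR302CHG had its lowest in SO-L1 cells below 2% (173, against 248 in ASO-L1).

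Several ratios depended on the class. SNHG15 was at 26.2 CPM in SO-L1 and 91.7 CPM in ASO-L1 at 2% or more, and at 28.6 and 193 CPM below 2%, ratios of 3.5 and 6.76. SNHG21 went from 2.89 to 7.41 (6.34 to 8.71), and SNHG11 from 1.92 to 4.10. In all, 22 of the 30 measured members had the larger ratio below 2%. This was not counted over all genes, but calls over all genes were also more frequent there. Below 2% 22.9% were higher and 24.9% lower, against 12.2% and 15.7% at 2% or more. GAS5 had nearly the same ratio in both, 2.67 (2.63 to 2.70) and 2.60 (2.57 to 2.64). SNHG1 had the smaller ratio below 2%, 3.12 against 3.96. SNHG14 was at 1022 CPM in SO-L1 and 777 CPM in ASO-L1 at 2% or more, and at 924 and 368 CPM below 2%, where its ratio was 0.399 (0.394 to 0.404). MIR302CHG had ratios of 2.31 at 2% or more, where it was called higher, and 1.43 below 2%, where it was not. Leaving out the shared barcodes raised several ratios below 2% by over 1.5 times, among them SNHG15 (to 12.7), SNHG21 (to 13.0), SNHG12 (to 5.43, from 3.25) and SNHG26, which was then called higher (2.06, from 1.28). These differences between classes have no replicate and were not tested.

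Comparing the classes inside each library, most members were in between in both, with 23 of 30 uncalled in SO-L1 and 17 of 30 in ASO-L1. In SO-L1 5 members were higher below 2% (GAS5, SNHG1, SNHG12, SNHG32 and SNHG31) and 2 lower (MIR302CHG and SNHG4), against 19.9% and 6.32% of all genes, with medians of 0.13 over members and 0.09 over all genes. In ASO-L1 11 were higher and 2 lower (MIR302CHG and SNHG14), against 27.1% and 12.8% of all genes, with medians of 0.50 and 0.14. Of the 29 long noncoding members 13.8% were higher in SO-L1 and 34.5% in ASO-L1. Among other long noncoding genes 27.6% and 35.2% were higher, with medians of 0.25 and 0.29. Relative to that all-gene shift of 0.14, 7 members were higher in ASO-L1 and 2 lower, and SNHG5 and SNHG9 changed sign. Without the barcodes deposited in both libraries, 19 members were higher in ASO-L1 and 2 lower, SNHG7 (1.41) and SNHG29 (1.25) having lost their calls and 10 others having gained one. No all-gene share is given for that setting, so its counts were not set against all genes.

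GAS5 was at 154 CPM at 2% or more and 348 CPM below 2% in SO-L1, a ratio of 2.26 (2.22 to 2.30), and at 411 and 908 CPM in ASO-L1, a ratio of 2.21 (2.19 to 2.23). SNHG12 was higher below 2% by 1.85-fold (SO-L1) and 2.86-fold (ASO-L1), and SNHG32 by 1.76-fold and 1.79-fold. These 3 genes and SNHG1 were called higher in both libraries. SNHG15 was near even in SO-L1 (1.09) and 2.11-fold higher below 2% in ASO-L1. SNHG11 (1.21 and 2.57) and SNHG21 (0.906 and 2.33) had the same order of libraries. Without the shared barcodes the ASO-L1 ratios were 4.54 for SNHG12, 3.42 for SNHG15, 3.71 for SNHG21, 2.21 for SNHG26, 2.08 for SNHG19 and 2.38 for SNHG20, each over 1.5 times larger. MIR302CHG was lower below 2% in both, with a ratio of 0.564 in SO-L1 and 0.349 (0.345 to 0.353) in ASO-L1. SNHG14 was nearly even in SO-L1 (0.904) and lower below 2% in ASO-L1 (0.474). ZFAS1 went from 1.05 in SO-L1 to 1.66 in ASO-L1, and EPB41L4A-AS1 stood at 1.47 and 1.43, under the line in both.

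Other genes moved with the class. All 8 pluripotency genes listed were lower below 2% in ASO-L1 and 2 of 8 in SO-L1, POU5F1 standing at ratios of 0.597 and 0.918. Median depth was also lower below 2%: 33612 against 45154 UMIs per cell in SO-L1 and 44720 against 56296 in ASO-L1. Their part in the members' class ratios was not tested.

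Finer steps of the MT- share showed where the levels turned. In ASO-L1, GAS5 went from 263 CPM in cells at 10% to 20% MT- UMIs through 557 CPM at 4% to 6% to 1237 CPM at 0.5% to 1%, and stood at 872 CPM under 0.25%. SNHG15 went from 66.2 CPM at 10% to 20% to 384 CPM at 0.5% to 1% and 169.7 CPM under 0.25%. Both thus had their highest level in ASO-L1 at intermediate shares and not at the lowest. MIR302CHG went the other way, from 809 CPM at 10% to 20% to 169 CPM at 0.5% to 1%, and SNHG14 from 905 to 292 CPM. In SO-L1, GAS5 went from 143 CPM at 10% to 20% to 404 CPM at 0.5% to 1%, and SNHG14 stayed between 898 and 1082 CPM over all 9 steps. In cells with 0.5% to 1% MT- UMIs MIR302CHG was lower in ASO-L1 (169 CPM, 894 UMIs) than in SO-L1 (199 CPM, 699 UMIs), the reverse of the order in all kept cells. That step held few cells, 249 in ASO-L1 and 217 in SO-L1, against 1706 and 1203 under 0.25%. The steps were not matched for depth, and its part in these levels was not tested.

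**Figure D3:**
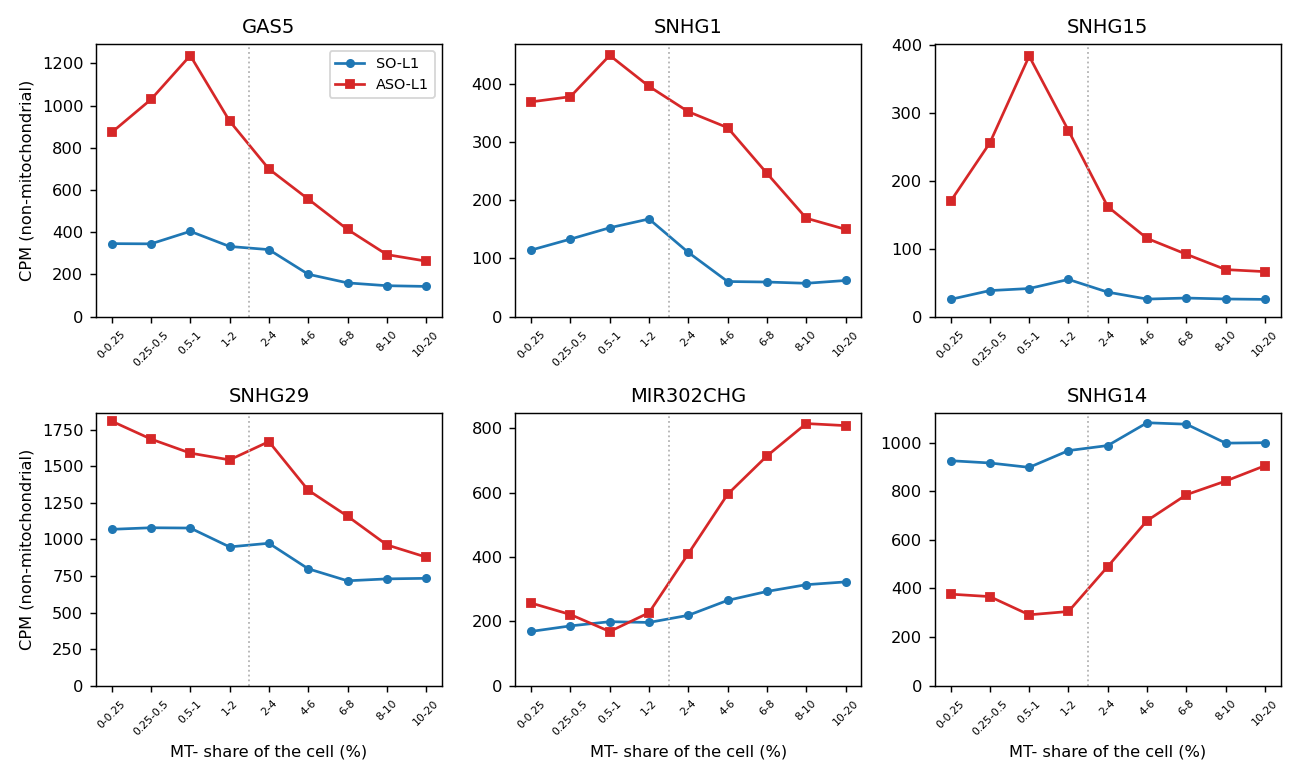
Level in CPM of non-mitochondrial UMIs against the MT- share of the cell in 9 steps, for 6 members in SO-L1 (blue circles) and ASO-L1 (red squares). The dotted line marks the 2% border. GAS5 and SNHG15 peak at 0.5% to 1% in ASO-L1 (1237 and 384 CPM, 249 cells), where MIR302CHG and SNHG14 have their lowest values (169 and 292 CPM).

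Per cell, the summed level of all members per 10000 non-mitochondrial UMIs had a median of 39.5 among SO-L1 cells and 61.9 among ASO-L1 cells. Without SNHG14 the medians were 29.2 and 54.5, and 95.9% of ASO-L1 cells lay above the SO-L1 median. The shift was thus spread over most cells and not carried by a few. The cells of ASO-L1 were also more uneven: without SNHG14 the 10th and 90th percentiles were 21.6 and 41.8 in SO-L1, and 33.3 and 97.2 in ASO-L1. For GAS5 the medians were 1.58 and 3.99, and 82.3% of ASO-L1 cells lay above the SO-L1 median. For SNHG14 the medians were 9.36 and 6.49, and 27.6% of ASO-L1 cells lay above the SO-L1 median. MIR302CHG below 2% gave opposite orders by sum and by median cell: its summed ratio was 1.43, but its median cell was at 1.13 in SO-L1 and 0.558 in ASO-L1, with 90th percentiles of 4.50 and 8.31.

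**Figure D4:**
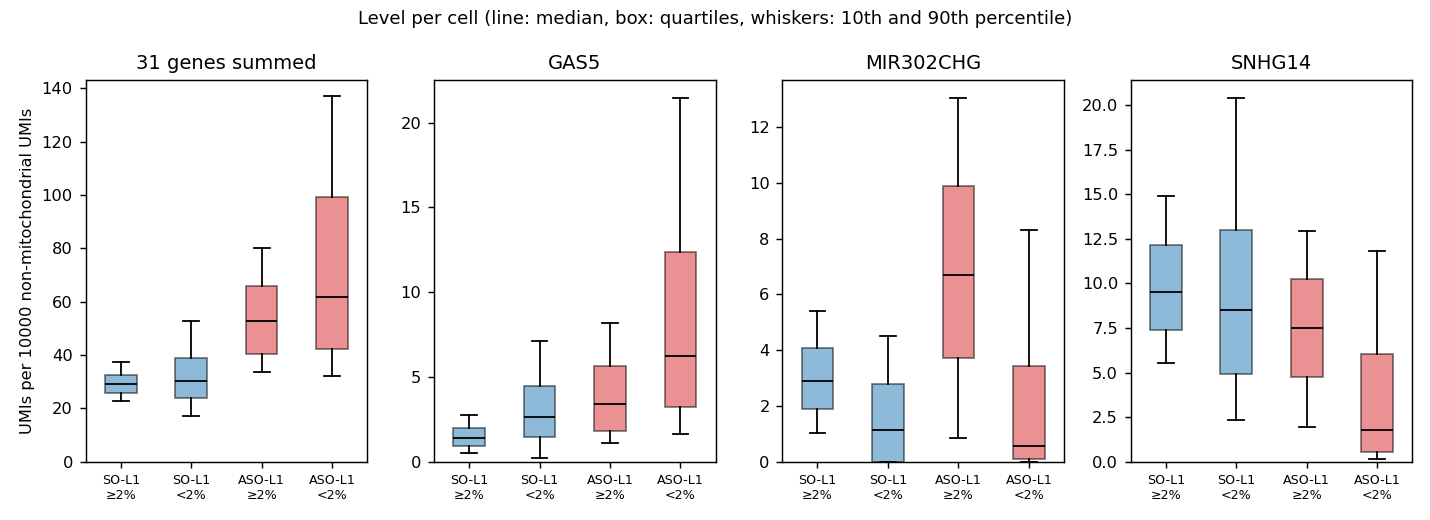
Level per cell in UMIs per 10000 non-mitochondrial UMIs, by library and MT- class (≥2%: 2% or more, <2%: below 2%), for the members without SNHG14 summed and for 3 single members. Lines are medians, boxes quartiles and whiskers the 10th and 90th percentiles over cells, which are not replicates. The ASO-L1 boxes lie higher for the sum (medians 52.9 and 61.7 against 29 and 30.1), and MIR302CHG and SNHG14 are lowest in ASO-L1 cells below 2%.

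Among the 10 members with most UMIs, levels per cell were more strongly correlated in ASO-L1 than in SO-L1. Over the 45 pairs, the median Pearson r was 0.08 in SO-L1 and 0.38 in ASO-L1 at 2% or more (4696 and 6553 cells), and 0.26 and 0.45 below 2% (1857 and 2531 cells). The highest was 0.71, for ZFAS1 and GAS5 in ASO-L1 below 2%. Pairs with SNHG14 had negative medians, with an r of -0.54 in that group and -0.15 in SO-L1 at 2% or more, and the lowest was -0.64, for SNHG14 and GAS5. These values describe cells of 1 library that share its depth and the same denominator, and ASO-L1 was the deeper library. Values per cell and per step of the MT- share include the cells with shared barcodes.

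Shares of cells with a UMI were compared after each cell was thinned to 8000 UMIs, which left 5904 SO-L1 and 8564 ASO-L1 cells. GAS5 had a UMI in 70.0% (exact binomial 95% interval 68.8% to 71.2%) of SO-L1 cells and 87.9% (87.2% to 88.6%) of ASO-L1 cells. Without thinning the shares were 93.7% and 98.5%. SNHG15 had a UMI in 17.3% and 48.7% of thinned cells, SNHG1 in 38.5% and 71.4%, and SNHG32 in 14.7% and 42.4%. All 4 were seen in a larger share of ASO-L1 cells. SNHG14 went from 98.6% to 86.6%, and MIR302CHG was at 77.8% and 79.0%. Cells were not typed, so no group of cells that should lack these genes was set apart. The part of free RNA in these shares was not tested.

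Cells with a UMI of TPRX1 or ZSCAN4, genes of the 8-cell stage of the human embryo, numbered 180 in SO-L1 and 971 in ASO-L1. Among the SO-L1 cells, 5 members were higher in them than in the other cells and none lower, against 8.67% and 1.22% of all genes, with medians of 0.18 over members and 0.01 over all genes. The 5 were SNHG12, SNHG1, SNHG32, GAS5 and EPB41L4A-AS1. In ASO-L1 11 were higher and 2 lower (MIR302CHG and SNHG14), against 14.6% and 10.2% of all genes, with medians of 0.45 and -0.02. Asking for at least 2 such UMIs, which left 28 and 407 cells, gave 18 higher and 2 lower in SO-L1 and 19 higher and 3 lower in ASO-L1. Without the barcodes deposited in both libraries, 7 were higher and 1 lower (SNHG22) in SO-L1, and 7 higher and 1 lower (SNHG14) in ASO-L1. The calls lost in ASO-L1 were those of SNHG1 (1.37), SNHG7 (1.38), SNHG8 (1.41), SNHG32 (1.44) and MIR302CHG (0.671). No all-gene share is given for at least 2 such UMIs or without shared barcodes, so these counts were not set against all genes.

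SNHG12 was at 19.1 CPM in the other cells and 43.0 CPM in the TPRX1 or ZSCAN4 cells of SO-L1, 2.25-fold (2.02 to 2.51), and at 43.0 and 105 CPM in ASO-L1, 2.45-fold (2.38 to 2.52). It had the largest ratio of any member in both libraries. GAS5 was at 195 and 319 CPM in SO-L1, 1.64-fold (1.57 to 1.70), and at 489 and 834 CPM in ASO-L1, 1.71-fold. SNHG1 was 1.83-fold and 1.60-fold higher, and SNHG32 1.76-fold and 1.57-fold. SNHG21 (1.98), SNHG15 (1.96) and SNHG11 (1.89) followed SNHG12 in ASO-L1. ZFAS1 stood at 1.31 and 1.49, and EPB41L4A-AS1 at 1.51 and 1.36. MIR302CHG was at 279 and 206 CPM in SO-L1, a ratio of 0.738, and at 635 and 334 CPM in ASO-L1, a ratio of 0.527 (0.519 to 0.534).

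The TPRX1 or ZSCAN4 cells lay in both mitochondrial classes, but more often below 2% than other cells did. In SO-L1 95 of the 180 were below 2% and 85 at 2% or more (median MT- share of the latter 9.18%), and in ASO-L1 529 of the 971 were below 2% and 442 at 2% or more (6.85%). Of all kept cells 28.3% and 27.9% were below 2%. The TPRX1 or ZSCAN4 cells were also somewhat deeper (45733 against 42270 UMIs, and 58520 against 53527). They were therefore also compared with other cells below 2% only, 95 with 1762 cells in SO-L1 and 529 with 2002 in ASO-L1. In SO-L1 9 members were higher and none lower, against 7.35% and 3.84% of all genes. In ASO-L1 9 were higher and 3 lower (SNHG14, MIR302CHG and SNHG18), against 7.16% and 20.5%. Within this class SNHG12 was higher by 2.54-fold (SO-L1) and 1.90-fold (ASO-L1). GAS5 stood at 1.52 and 1.32, so that it passed the 1.5-fold line in SO-L1 and not in ASO-L1. SNHG14 was at 438 CPM in the other ASO-L1 cells below 2% and 162 CPM in the TPRX1 or ZSCAN4 cells, a ratio of 0.370 (0.359 to 0.381).

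The proteins and pathways that act on host genes and their snoRNAs differed less between the libraries than the members did, by median log2 ratio. Values of these and the following lists are for all kept cells unless a class is named. Of the 8 core proteins of snoRNA particles, 1 was higher and none lower in all kept cells, with a median log2 ratio of 0.41. NOP10, an H/ACA protein, was at 140.2 CPM in SO-L1 and 252 CPM in ASO-L1 (1.80-fold), whereas SNU13 (1.13), NOP56 (1.34), GAR1 (1.41) and NHP2 (0.808) stayed under the line. Of 11 assembly factors 2 were higher, RPAP3 (1.68) and NAF1 (1.5), with a median of 0.17. Of 44 protein-coding snoRNA hosts 5 were higher and none lower, with a median of 0.22. They were RPL23A (2.29), EIF4A2 (2.17), HSPA9 (1.80), TAF1D (1.59) and EIF5 (1.54). Of these 44 listed genes 39 were in between, while over all genes 16.6% were higher and 17.1% lower. Below 2% MT- UMIs 3 of the 8 core proteins, 5 of the 11 assembly factors and 11 of the 44 hosts were higher. Their medians there were 0.52, 0.54 and 0.31, and 0, 1 and 1 genes were lower. Of all genes below 2%, 22.9% were higher and 24.9% lower. Whether carrying a snoRNA has a part in the members' ratios was not tested.

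Ribosomal protein genes, whose UMIs are uncertain where near-identical gene copies share reads, and other TOP genes were close to even. Of 85 measured ribosomal protein genes 4 were higher (RPL23A, RPL38, RPS10 and RPL39) and 2 lower (RPL12, ratio 0.551, and RPL26, 0.634), with a median log2 ratio of 0.14. Of 23 other translation genes with a TOP start 4 were higher, VIM (3.51), EEF1A1 (1.78), BTF3 (1.56) and PABPC1 (1.56), with a median of 0.21. VIM is an intermediate filament gene and not a translation factor.

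Genes of nonsense-mediated decay were counted as factors and as targets. Of 17 decay factors 4 were higher, EIF4A3 (2.40), SMG8 (1.86), MAGOH (1.73) and UPF3A (1.5), and 1 was lower, SMG6 (0.609), with a median of 0.12. The helicase UPF1 was at 31.3 and 29.2 CPM, a ratio of 0.935. Of 14 measured mRNAs known to be lowered by this decay 5 were higher and none lower, with a median of 0.37: GADD45B (5.77), GADD45A (4.68), DDIT3 (3.62), ATF3 (2.82) and ATF4 (2.05). These 5 are also stress response genes. The splicing factor genes of the list stayed under the line, SRSF3 at 1.11 and SRSF7 at 1.24.

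Other noncoding RNAs and cell state genes were read in the same way. Of 23 measured noncoding host and nuclear RNAs 2 were higher, CYTOR (1.99) and CRNDE (1.95), and 6 lower, with a median of 0.17. DANCR, itself a snoRNA host named outside the SNHG series, was at 319 and 438 CPM, a ratio of 1.37. The nuclear RNAs MALAT1 (1.45) and NEAT1 (0.798) stood on opposite sides of even. Below 2% MT- UMIs 5 of the 23 noncoding RNAs were higher and 10 lower, with a median of -0.44. None of the 8 pluripotency genes was called in all kept cells, with a median of -0.08. Below 2% 5 of the 8 were lower and none higher, with a median of -0.62. Of all genes below 2%, 22.9% were higher and 24.9% lower. In all kept cells all 13 measured 8-cell stage genes were higher, with a median of 2.74, and 7 of 10 naive genes were higher and 2 lower. Of 17 measured markers of other cell types 11 were higher, among them CER1, an endoderm gene, at 4.06 and 58.4 CPM, and TWIST1, a mesoderm gene, at 6.76 and 20.6 CPM, while SOX17 stood at 0.0110 and 0.0601 CPM and CDX2 at 0.0146 and 0.0501 CPM. The 8-cell, naive and other cell type lists were thus higher in ASO-L1 along with the members, and their part in the members' ratios was not tested.

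Gene length also went with the ratio across the whole table. Among other genes spanning under 5000 bases 27.3% were higher in ASO-L1, and of those over 100000 bases 6.69% were higher and 28.8% lower. Of the 15 members under 5000 bases 14 were higher, with a median log2 ratio of 1.25 against 0.13 over other genes of that span. Of the 11 members from 5000 to 20000 bases 10 were higher, with a median of 0.92 against 0.06. Of these 26 members, SNHG18 and SNHG26 were the ones not called higher. The members over 100000 bases, SNHG31 and SNHG14, had a median of -0.53 against -0.29. Among the 5972 other long noncoding genes measured 19.9% were higher and 23.8% lower.

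**Figure D5:**
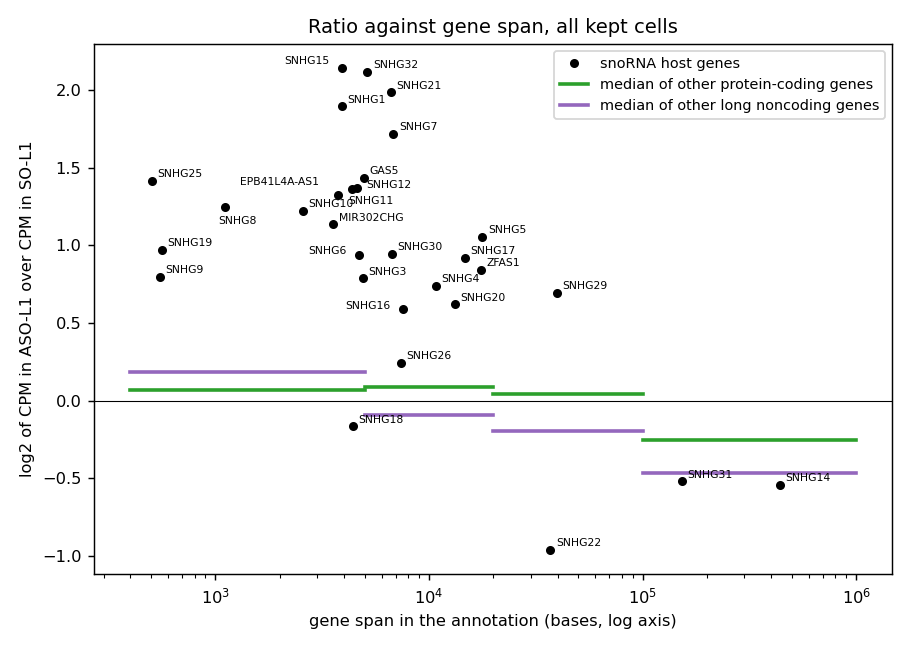
Log2 ratio of CPM in ASO-L1 over SO-L1 in all kept cells against gene span in GENCODE 29 (bases, log axis) for the 30 measured members (points). Bars give the medians of other protein-coding (green) and other long noncoding genes (purple) in steps of under 5000, 5000 to 20000, 20000 to 100000 and over 100000 bases. SNHG14 and SNHG31, the longest members, lie near the medians of their span, and most shorter members lie above 0.5.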

How the data were processed

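RNA was counted in single cells of 2 libraries, SO-L1 and ASO-L1, with 1 library per group. The authors deposited, per the file headers, matrices of whole UMI counts per gene and barcode. Cell Ranger 7.1.0, hg38 and GENCODE 29 are named in the submitters' processing notes; for intronic and antisense reads the settings are not stated in these sources. No column of another series was present (0 columns).

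Cells with at least 1000 genes and under 20% MT- UMIs were kept, with no doublet removal or clustering. The kept SO-L1 cells held 273349662 UMIs and those of ASO-L1 499106701. UMIs were summed per library and class, divided by the sum's total (MT- genes left out except over all kept cells) and multiplied by 1000000 to give CPM. Ratios have exact conditional binomial (Clopper-Pearson) 95% intervals, which cover counting error only. Genes with at least 100 UMIs over both sums were measured. A call needed a ratio of 1.5-fold and an interval excluding 1. With 1 library per group no p-value exists. Shares of cells with a UMI were taken after thinning to 8000 UMIs.

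The members and lists were chosen with earlier results of these data known. In each comparison the named genes were the 3 members with most UMIs, the 3 largest and 3 smallest ratios, GAS5, EPB41L4A-AS1, ZFAS1 and MIR302CHG, and from each list the 2 genes with most UMIs and the 2 with the largest and smallest ratio. Other members were allowed, and other list genes were named after their values were seen. Alternatives were other cell and UMI filters, scalings, class borders and thinning. Leaving out barcodes that passed the filter in both libraries was added after seeing the data. Values given above without shared barcodes leave out every barcode deposited in both libraries, 1062 kept cells of SO-L1 and 5308 of ASO-L1. That choice rests on the overlap seen in these data. The sums were checked on simulated data. Python 3.11.15, numpy 2.4.6, scipy 1.17.1, pandas 2.3.3 and matplotlib 3.10.9 were used. Host classes follow small RNAs of the RefSeq gene table that lie within each member's GENCODE 29 span.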

Additional observations from a re-analysis of the deposited data

Results flagged for a closer look

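Among the members, 7 had levels below 2% MT- UMIs that stood above those at 2% or more in ASO-L1 and under them in SO-L1, or the reverse, with counting intervals excluding 1 in both libraries. Each library is 1 sample, so the difference between the libraries was not tested. The ratio below 2% over 2% or more was 1.22 in ASO-L1 and 0.834 in SO-L1 for SNHG3, host of SNORA73A and SNORA73B. It was 1.43 and 0.974 for SNHG6, 1.25 and 0.864 for SNHG16, and 1.07 and 0.906 for SNHG5. For SNHG10 it was 1.15 and 0.828, and for SNHG25 1.14 and 0.909. SNHG18 had the opposite order, 0.859 in ASO-L1 and 1.20 in SO-L1. None of these ratios reached the 1.5-fold line. Relative to the all-gene shift of 0.14 log2 in ASO-L1, SNHG5 changed sign, so that it stood under even there as well as in SO-L1. Without the barcodes deposited in both libraries, SNHG18 stood at 1.14 (95% interval 0.942 to 1.38) in ASO-L1 and 1.18 in SO-L1, so that its opposite order was gone. SNHG3 (1.52), SNHG6 (1.66), SNHG10 (1.52) and SNHG25 (1.68) were then called higher below 2% in ASO-L1, and SNHG6 in SO-L1 had an interval holding 1 (0.962 to 1.01).

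SNHG10, host of a small Cajal body RNA, also stood on opposite sides of even in the cells with TPRX1 or ZSCAN4 UMIs over the other cells, at 1.32 in ASO-L1 and 0.746 in SO-L1. Without the shared barcodes these were 1.27 and 0.737, the latter with an interval of 0.492 to 1.06. This difference was not tested.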

How the results depend on the processing

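No single member called higher or lower changed direction under 2250 alternative values of members, and 139 of 156 alternative counts, medians and shares moved little. The number of members higher in ASO-L1 ranged from 24 to 25 in all kept cells, 22 to 23 at 2% or more MT- UMIs and 24 to 25 below 2%. The number lower in all kept cells was 3 with at least 2000 genes and under 10% MT- UMIs, 2 after thinning and 3 without barcodes deposited in both libraries, where it was 2 at 2% or more. Members higher below 2% in ASO-L1 numbered 7 with the all-gene median set to 0 and 19 without the shared barcodes. In the TPRX1 or ZSCAN4 cells of SO-L1, 9 were higher after thinning, 9 below 2% only and 18 with at least 2 such UMIs, and 1 was lower after thinning, 1 without shared barcodes and 2 with at least 2 UMIs. In those of ASO-L1, 7 were higher and 1 lower without shared barcodes, and 19 were higher with at least 2 UMIs. All-gene shares are not given for these alternative counts, except for the cells below 2% only. The median share of cells with a UMI over members was 66.8% in SO-L1 and 88.3% in ASO-L1 without thinning. The cause of these moves was not tested, except that thinning removes depth by construction. No paired analysis was possible because each group has 1 library. Counting depth does not limit the ratios of abundant members, but intervals do not cover the spread between cultures.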

Other observations

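Barcodes left out for having under 1000 genes carried members too. In SO-L1 the 6045 such barcodes held 5290.1 CPM of the members without SNHG14, and the 1005 of them whose barcode was absent from ASO-L1 held 3285 CPM. In ASO-L1 the 2045 such barcodes held 5751 CPM, and the 1254 of them whose barcode was absent from SO-L1 held 7204 CPM. GAS5 stood at 483 CPM in the 6045 SO-L1 barcodes and at 300.3 CPM in the 1005. MIR302CHG stood at 534 and 282 CPM, and SNHG14 at 771 and 1099 CPM, in the same order. In ASO-L1 the 2045 and the 1254 barcodes held 571 and 783 CPM of GAS5, 506 and 631 CPM of MIR302CHG, and 835 and 708 CPM of SNHG14.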
